A study of Rattus norvegicus with 4 samples.

Results

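The aminoacyl-tRNA synthetases of INS-1 832/3 cells, the enzymes that load each amino acid onto its transfer RNA, were examined in 2D monolayer and in 3D-bioprinted culture. The genes were taken by symbol: every symbol made of 1 letter and "ars", with or without a closing 1 or 2, together with Eprs, Farsa, Farsb and the scaffold genes Aimp1 and Aimp2, where the mean was at least 1 TPM (the share of a transcript among all, corrected for its length). All 39 symbols that matched, of 23360 gene symbols in the data, lay above this minimum. Of these, 17 end in 2 and encode mitochondrial enzymes, and 22 are cytosolic, namely 20 enzymes or enzyme subunits and the 2 scaffolds. Aimp2 was counted as cytosolic although its symbol ends in 2.

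INS-1 832/3 is a rat insulinoma line that carries the human insulin gene and is kept under Geneticin. In the 2D group the cells grew as a standard monolayer, and in the 3D group they were bioprinted as grids into GelXA LAMININK 411, a gelatin methacrylate hydrogel blended with laminin-411 that is cross-linked by UV light. Both groups shared the medium, were harvested after 5 days at passage 3 and held 2 cultures each, called biological replicates. Only the 3D group met the gel, the printing and the light, so these cannot be told apart.

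Synthetases fall into a pair of structural classes that each cover about the same number of amino acids. In the cytosol, several of them sit with the scaffolds AIMP1, AIMP2 and EEF1E1 in the multisynthetase complex, and others work free of it. Mitochondria import their own set of nuclear-encoded enzymes, while Gars and Kars encode enzymes for both compartments, and mitochondrial glutaminyl-tRNA is made by charging glutamate and amidating it. When charging fails, uncharged tRNA activates the kinase GCN2, which leads to translation of ATF4, a transcription factor that raises many cytosolic synthetase genes in cells starved of amino acids. In beta cells, which devote much of their translation to proinsulin, charged tRNA is in constant demand.

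Promoter windows were read for motifs of factors known to act on such genes. RefSeq windows of the build GRCr8, from 250 bases before to 50 bases after the transcription start, were found for 35 of the 39 genes. The other 4, among them Dars, Gars and Rars1, had none. The letters TGATGNAA, the composite element of C/EBP and ATF factors that ATF4 is known to bind, were searched on both strands. They occurred in the windows of 7 of 19 cytosolic genes and of 0 of 16 mitochondrial genes, where 4.16% of all genes with a window held them. No test was made of this count. The matches are shown because ATF4 and its other targets are described further on. Capitals mark the match, given as its reverse complement where it lies on the opposite strand, and each stretch runs 5′ to 3′ along the gene.

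Aars, chr19:55908354-55908393, + strand: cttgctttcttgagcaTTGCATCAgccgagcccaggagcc
Aars, second match, chr19:55908475-55908514, + strand: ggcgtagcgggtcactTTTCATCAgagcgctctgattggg
Cars, chr1:208225329-208225368, - strand: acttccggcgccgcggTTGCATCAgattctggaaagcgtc
Iars1, chr17:15193653-15193692, - strand: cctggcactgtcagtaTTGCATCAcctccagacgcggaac
Mars1, chr7:65023747-65023786, - strand: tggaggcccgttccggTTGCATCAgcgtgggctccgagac
Nars1, chr18:60275773-60275812, - strand: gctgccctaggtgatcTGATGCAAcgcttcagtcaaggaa
Tars1, chr2:62114806-62114845, - strand: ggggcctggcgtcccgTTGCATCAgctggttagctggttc
Yars1, chr5:146820185-146820212, + strand: gagctacgagctcagcTGATGCAAcctg

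Of these 7 genes, Mars1 and Yars1 fell in the test of expression described below, where 19.5% of all genes fell. The letters occurred in 18.2% of the genes with a window that fell and in 20.8% of those not called. The windows of Hars1 and Hars2, the cytosolic and the mitochondrial histidyl-tRNA synthetase, shared 243 bases on opposite strands, so these genes start head to head. The pair was chosen after its values were seen, and the window of Hars1 is printed because both genes start within it. Capitals mark the letters CCGGAAG, the core of ETS factor sites.

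Hars1, chr18:28672663-28672962, - strand: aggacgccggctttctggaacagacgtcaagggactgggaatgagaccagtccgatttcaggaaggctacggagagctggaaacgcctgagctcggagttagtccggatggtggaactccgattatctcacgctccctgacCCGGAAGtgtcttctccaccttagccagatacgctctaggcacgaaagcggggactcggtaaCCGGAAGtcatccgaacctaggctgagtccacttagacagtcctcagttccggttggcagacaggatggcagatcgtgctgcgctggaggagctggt

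On either strand, CCGGAAG was present in the windows of 11 of 19 cytosolic and 6 of 16 mitochondrial genes, against 9.63% of all genes. The E-box CACGTG was found in 5 and 1, against 7.08%, and the core of the NRF1 motif in 3 and 3, against 4.82%. For CCAAT the counts were 11 and 6, where 39.6% of all genes held it. The windows of the genes had a median GC content of 58%, against 51.7% over all windows, and base composition was not taken into account in these shares. Aimp1 and Yars2 had the next largest falls after Pars2. The window of Aimp1 held the ETS core once, that of Yars2 held none of the motifs, and neither is printed. Pars2, the gene with the largest fall when all 4 cultures were used, held the ETS core once, the CCAAT box at 3 places and the NRF1 core within 300 bases, all in capitals, on either strand, where the core and the last CCAAT touch.

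Pars2, chr5:126662669-126662968, + strand: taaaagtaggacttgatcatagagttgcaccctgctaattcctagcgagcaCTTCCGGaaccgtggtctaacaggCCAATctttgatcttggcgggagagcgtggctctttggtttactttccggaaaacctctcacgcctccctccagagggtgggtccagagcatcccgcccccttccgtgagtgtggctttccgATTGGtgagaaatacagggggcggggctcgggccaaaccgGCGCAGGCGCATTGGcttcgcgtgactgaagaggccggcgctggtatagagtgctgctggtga

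Cell identity and the state of the libraries were checked first. All 10 beta-cell markers examined had a mean above 1 TPM. Of the markers of other cells in the data, a mean above 1 TPM was reached by 1 of 6 endothelial (Kdr), 1 of 6 fibroblast (Pdgfra), 0 of 6 leukocyte, 1 of 7 acinar (Ctrb1) and 1 of 5 duct markers (Krt7). Pdgfrb, Dcn, Ptprc, Cdh5 and Prss1 were listed at 0 in all samples. The summed level of the duct markers, nearly all of it Krt7, was 16.4 and 19.2 TPM in 2D and 22.5 and 20.7 TPM in 3D, and the endothelial sum was 1.08 and 1.15 against 1.40 and 1.68 TPM. The 13 transcripts encoded in mitochondrial DNA took 10.1% and 9.35% of TPM in 2D and 13.0% and 12.3% in 3D. Since TPM share a fixed total, the part of such shifts in a synthetase value was not tested beyond the scaling alternatives given here. In bulk RNA, fewer cells with a transcript and less transcript per cell cannot be told apart.

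Before any comparison, the levels set the 2 compartments apart. TPM are adjusted for transcript length, so levels of different genes can be compared. Scaled TPM, divided by a factor per sample from 0.960 to 1.02, are used from here on unless deposited values are named. Among the 22 cytosolic genes, mean levels ran from 22.7 to 260 TPM, and among the 17 mitochondrial genes from 3.65 to 25.9 TPM. Only Tars2 exceeded the lowest cytosolic gene, so 16 of 17 mitochondrial genes lay below all cytosolic ones.

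Gars, which charges glycine in both compartments, was the most abundant, with 267 and 287 TPM in 2D and 249.9 and 235 TPM in 3D. All 4 of its values stood above every value of the next gene. That gene was Sars1, for serine, with 134 and 130.3 TPM in 2D and 112 and 119.8 TPM in 3D. Hars1 and Nars1 followed at means of 93.7 TPM each, and their values overlapped.

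At the lower end of the cytosolic set stood Cars, for cysteine, with 24.1 and 23.3 TPM in 2D and 23.0 and 20.6 TPM in 3D. Its range overlapped that of the next gene, Farsb. In mitochondria, Tars2, for threonine, led with 26.5 and 29.1 TPM in 2D and 22.4 and 25.5 TPM in 3D. Rars2, for arginine, followed with 19.0 and 19.2 TPM in 2D and 17.3 and 17.1 TPM in 3D. Next came Cars2, for cysteine, with 12.2 and 12.7 TPM in 2D and 12.5 and 11.2 TPM in 3D. The 2 lowest were Nars2, for asparagine, and Ears2, for glutamate, at means of 3.65 and 4.20 TPM.

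**Figure D1:**
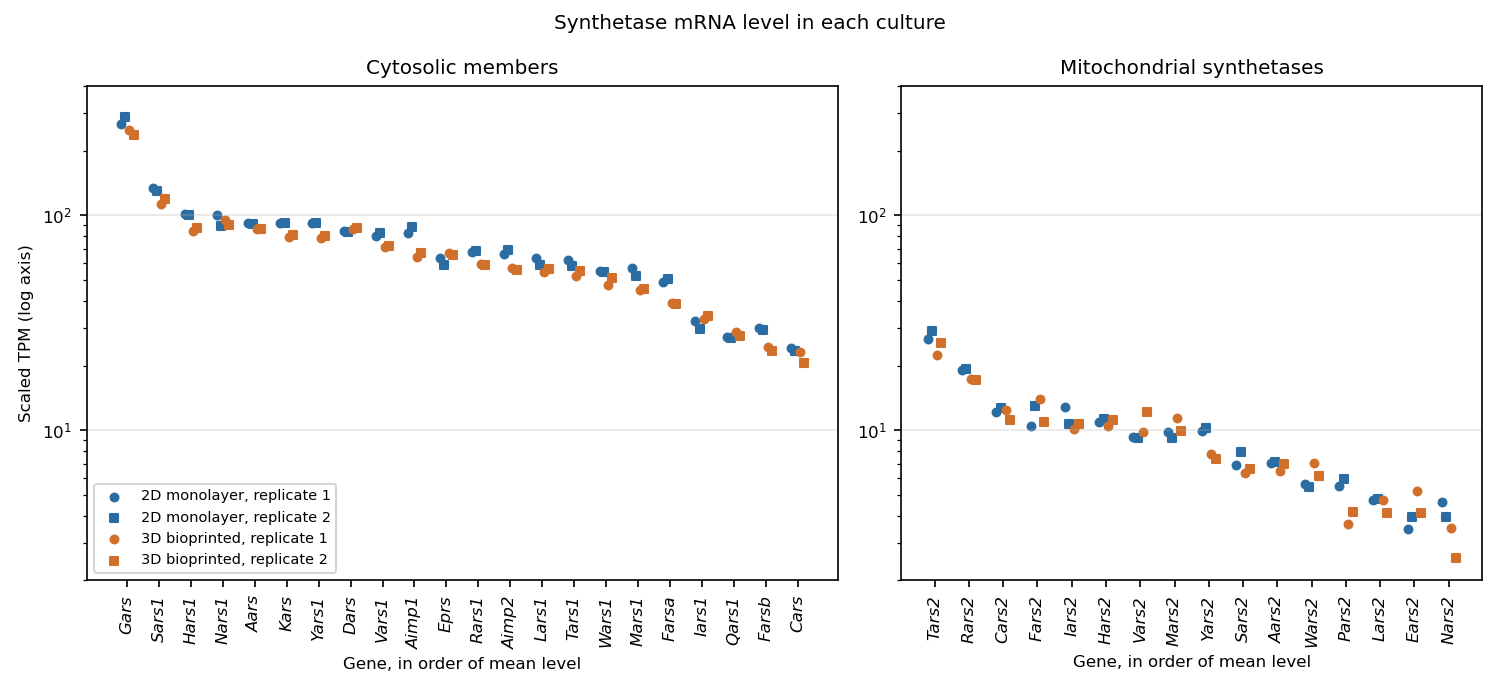
Scaled TPM on a log axis for the 22 cytosolic genes and all but 1 of the 17 mitochondrial genes, ordered by mean level, with 1 point per culture (blue 2D, orange 3D, circle replicate 1, square replicate 2). Gars stood alone at the top, and of the mitochondrial genes only Tars2 reached the range of the lowest cytosolic ones.

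In sum, the 39 genes held 0.191% and 0.181% of deposited TPM in 2D and 0.171% and 0.173% in 3D. The 20 cytosolic enzymes and subunits summed to 1592 and 1497 deposited TPM in 2D and to 1428 and 1448 in 3D. For the 17 mitochondrial enzymes the sums were 167 and 163 against 158 and 159. In all 3 sums both 3D cultures were lower than both 2D cultures.

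The question of the comparison was how bioprinted 3D culture changed the cells against monolayer. With adjusted p under 0.05 as the threshold, 13 of the 39 genes fell in 3D, 0 rose and 26 were not called. Of the 11960 genes in the fit, 38.0% passed the same threshold, 19.5% lower and 18.5% higher in 3D, against 33.3% and 0% of the 39 genes. The share that fell was 45.5% for the cytosolic genes and 17.6% for the mitochondrial ones, the latter close to that of all genes. The falls were small, to between 0.682 and 0.882 of the 2D mean. Fold changes and p-values are those of limma, a linear model whose error is moderated across all genes, on log2(scaled TPM + 1). On this scale the change of genes with low TPM is understated.

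By the values themselves, both 3D cultures lay below both 2D cultures in 27 of the 39 genes and above them in 8, and the groups overlapped in 4. Of all genes, 75.5% had groups without overlap, 38.2% lower and 37.3% higher in 3D. The median log2 fold change was -0.18 for the cytosolic genes and -0.093 for the mitochondrial ones, against -0.0031 over all genes tested. On deposited TPM without scaling 7 genes fell, 4 of 22 cytosolic and 3 of 17 mitochondrial, and 0 rose. In that setting 1812 of all 11960 genes fell and 2258 rose. The number of cytosolic genes that fell thus depended on whether samples were scaled, and scaling by the median log ratio gave 9 of 22. Without scaling the cytosolic median was -0.14, against 0.036 over all genes tested.

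With a culture left out, its group holds 1 sample, which is assumed to vary like the pair of the other group. Without 2D replicate 1 the fit called 12 of the 39 genes, without 2D replicate 2 it called 6, and without either 3D culture 0, the smallest adjusted p being 0.0907 without 3D replicate 1 and 0.0654 without 3D replicate 2. Over all genes, 3031 were called without 2D replicate 2, 108 without 3D replicate 1 and 633 without 3D replicate 2. The 13 genes kept their negative sign in all of these fits, with log2 fold changes from -0.53 to -0.16.

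**Figure D2:**
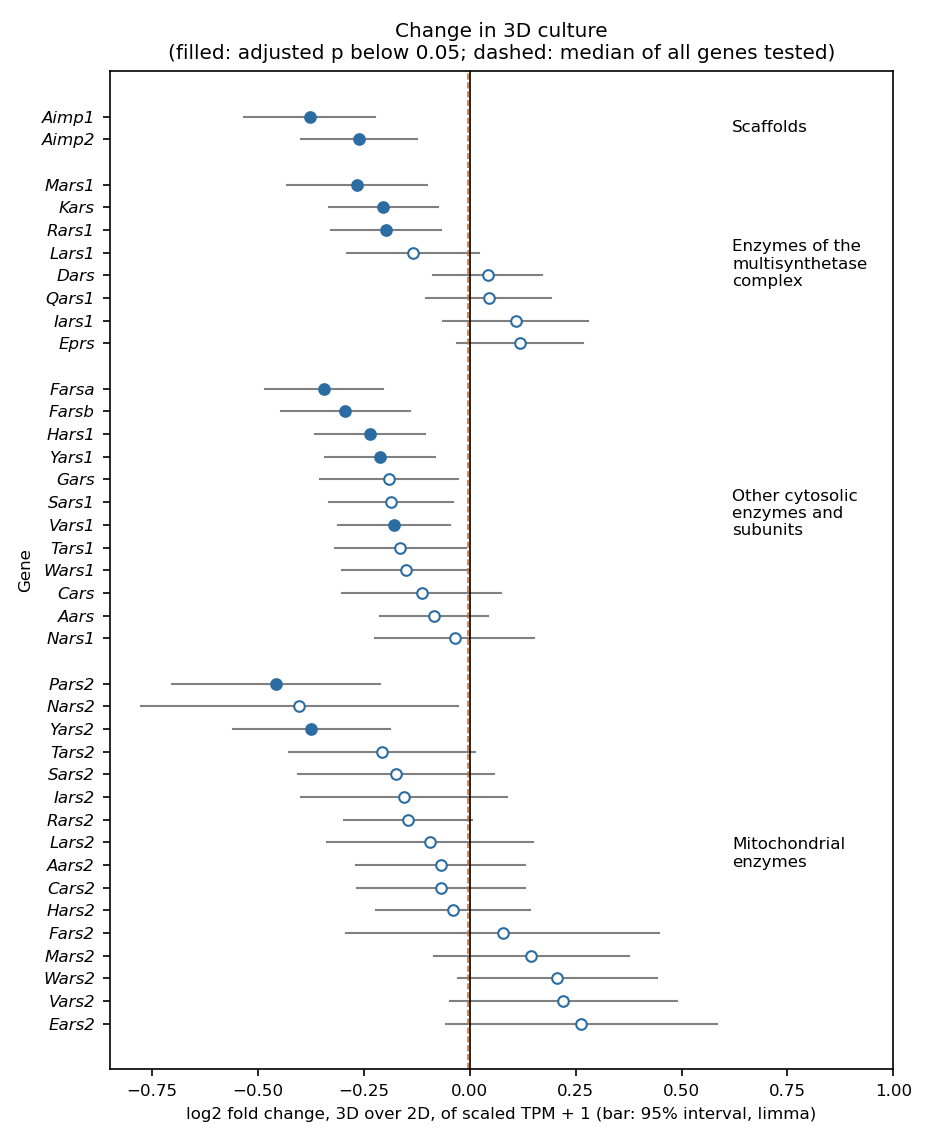
Log2 fold change of 3D over 2D for all but 1 of the 39 genes with its 95% interval from limma, grouped by role, with filled points where the call was made, and the dashed line is the median over all genes tested. All filled points lie to the left of 0, and the 4 positive points among the cytosolic genes are all enzymes of the multisynthetase complex.

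The 2 scaffold genes both fell. AIMP1 binds arginyl-tRNA synthetase in the complex and is also the precursor of a secreted cytokine. Aimp1 had 82.4 and 87.9 TPM in 2D and 63.7 and 66.9 TPM in 3D. The groups were well apart, and the log2 fold change was -0.38 (standard error, SE, 0.062, limma adjusted p = 0.0100). AIMP2 is the core on which the complex assembles. Aimp2 had 66.4 and 69.1 TPM in 2D and 56.9 and 55.8 TPM in 3D, a log2 fold change of -0.26 (SE 0.055, limma adjusted p = 0.0182). The ratio of Aimp1 to Aimp2 was 1.24 and 1.27 in 2D and 1.12 and 1.1999 in 3D. Eef1e1, another scaffold and not among the 39 genes, had 30.6 and 29.5 TPM in 2D and 27.9 and 26.8 TPM in 3D, a log2 fold change of -0.13 that did not pass (limma adjusted p = 0.131).

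The 8 enzymes of the multisynthetase complex went in both directions by sign, 4 lower and 4 higher, without overlap in any of them. Of all genes, 75.5% were without overlap too. Among the 8 enzymes, 3 fell (37.5%, where 19.5% of all genes did). Mars1, which charges both initiator and elongator methionine tRNA, had 57.1 and 52.0 TPM in 2D and 44.8 and 45.4 TPM in 3D (log2 fold change -0.27, SE 0.066). Kars, for lysine in both compartments, had 92.6 and 92.0 TPM in 2D and 79.3 and 80.7 TPM in 3D. The groups of Kars were tight and well apart, those of Mars1 less so in 2D, and the log2 fold change of Kars was -0.20 (SE 0.051, limma adjusted p = 0.0295). Rars1, for arginine, had a log2 fold change of -0.20 and an adjusted p of 0.0338 in limma, which became 0.0503 with a replicate block. Without scaling, none of these 3 passed, with adjusted p of 0.0855 for Mars1, 0.0738 for Kars and 0.0723 for Rars1 in limma. Without the trend those of Kars and Rars1 were 0.0584 and 0.0631. Mars1 had 0.0527 without 2D replicate 1, and Kars 0.0536 and Rars1 0.0662 without 2D replicate 2. Lars1, for leucine and known as a leucine sensor of mTORC1, had a log2 fold change of -0.13 and did not pass.

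None of the 4 enzymes with higher values passed. Eprs, a fused enzyme for glutamate and proline, had 63.1 and 59.0 TPM in 2D and 66.9 and 65.7 TPM in 3D. Its log2 fold change was 0.12, with a 95% interval from -0.029 to 0.27. Iars1, for isoleucine, had a log2 fold change of 0.11, Qars1, for glutamine, of 0.045 and Dars, for aspartate, of 0.043. For Dars the interval ran from -0.086 to 0.17. The median over the 8 enzymes was -0.045.

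Among the 12 other cytosolic enzymes and subunits, all 12 had a negative log2 fold change and 5 fell (41.7%, where 19.5% of all genes did). Without scaling between samples 11 were negative, the exception being Nars1 at 0.0077. The median was -0.18. Phenylalanyl-tRNA synthetase is built of alpha and beta subunits from separate genes, and both fell. Farsa, for the alpha subunit, had 48.7 and 50.7 TPM in 2D and 39.2 and 38.8 TPM in 3D, a log2 fold change of -0.34 (SE 0.056, limma adjusted p = 0.0099). Farsb, for the beta subunit, had 30.0 and 29.1 TPM in 2D and 24.5 and 23.4 TPM in 3D, a log2 fold change of -0.29 (SE 0.061, limma adjusted p = 0.0176). Their ratio, alpha over beta, stayed between 1.60 and 1.74 in the 4 cultures, and those of 2D and 3D overlapped.

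Hars1 had 102 and 101 TPM in 2D and 84.8 and 87.2 TPM in 3D, a log2 fold change of -0.24 (SE 0.052, limma adjusted p = 0.0210). Yars1, the tyrosine enzyme, had 92.6 and 91.8 TPM in 2D and 78.6 and 80.4 TPM in 3D (log2 fold change -0.21, limma adjusted p = 0.0274). In both genes the cultures of a group lay much closer to each other than to those of the other group. Without scaling between samples the adjusted p in limma was 0.0516 for Hars1 and 0.0687 for Yars1, and without the intensity trend 0.0546 for Yars1. Without 2D replicate 2 that of Yars1 was 0.0514. Vars1, for valine, fell with an adjusted p of 0.0473 in limma, which was between 0.0332 and 0.0911 in 7 other settings and below 0.05 in 2 of them.

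The 2 most abundant genes missed the threshold. Sars1 had a log2 fold change of -0.19 (limma adjusted p = 0.0538) and Gars of -0.19 (limma adjusted p = 0.0665), both without overlap between groups. In 7 other settings on all 4 samples the limma adjusted p of Sars1 ran from 0.0473, without a TPM filter, to 0.146. That of Gars ran from 0.0631 to 0.106. Tars1 and Wars1, for threonine and tryptophan, had -0.16 and -0.15. For Cars, Aars and Nars1 the values were -0.11, -0.084 and -0.035. Nars1, at 101 and 89.2 TPM in 2D and 94.9 and 89.96 TPM in 3D, was the only cytosolic gene with overlapping groups. By structural class, 4 of 9 class I (44.4%) and 4 of 10 class II (40%) cytosolic genes fell, where 19.5% of all genes did. The medians were -0.15 and -0.19, Eprs holding both classes.

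Of the 17 mitochondrial enzymes, 3 fell (17.6%, where 19.5% of all genes did), 12 had a negative and 5 a positive log2 fold change. Pars2, which charges proline, had 5.50 and 5.92 TPM in 2D and 3.65 and 4.14 TPM in 3D. With all 4 cultures this was the largest log2 fold change of the 39 genes in size, at -0.46 (SE 0.098, limma adjusted p = 0.0193). Without 2D replicate 2 or 3D replicate 1 its value was -0.41 or -0.38, and that of Nars2, at -0.50 or -0.58, was larger in size. Yars2, for tyrosine, had 9.87 and 10.2 TPM in 2D and 7.72 and 7.34 TPM in 3D, a log2 fold change of -0.37 (SE 0.074, limma adjusted p = 0.0158). Without 2D replicate 2 neither passed, with adjusted p of 0.0715 for Pars2 and 0.0555 for Yars2 in limma. In both genes the groups were apart by more than the spread within either.

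Nars2 had 4.63 and 3.94 TPM in 2D and 3.50 and 2.54 TPM in 3D. The groups did not overlap, but the 3D cultures differed by nearly as much as the groups did, and the log2 fold change of -0.40 had a standard error of 0.15 (limma adjusted p = 0.0830). With a replicate block its adjusted p was 0.0311. Rars2 and Tars2 had log2 fold changes of -0.15 and -0.21 and adjusted p of 0.106 and 0.112 in limma. Among the 5 with positive values, none passed. Ears2, which in mitochondria charges tRNA for both glutamate and glutamine, had 3.49 and 3.95 TPM in 2D and 5.23 and 4.13 TPM in 3D (log2 fold change 0.26, 95% interval -0.057 to 0.58). Vars2 and Wars2 had 0.22 and 0.21, Mars2 had 0.15, and Fars2 had 0.078 with overlapping groups. With single cultures left out the value of Vars2 ran from 0.082 to 0.36, that of Wars2 from 0.12 to 0.29, that of Mars2 from 0.047 to 0.24 and that of Ears2 from 0.12 to 0.40. Fars2 turned negative without 2D replicate 1 (-0.070) or 3D replicate 1 (-0.088). At these low levels the intervals were wide, and a change of the size seen in Yars2 lay inside the interval of Iars2, from -0.40 to 0.088.

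The enzymes of the same amino acid in the 2 compartments could be compared within a sample, as a ratio that no scaling between samples affects. There were 18 such ratios over 17 mitochondrial genes, as Eprs serves 2 amino acids and both subunits of the phenylalanine enzyme were set against Fars2. The ratio of cytosolic to mitochondrial TPM ran from 1.75 to 35.5 over all samples, and its median was 9.13 in 2D and 7.73 in 3D. In 5 ratios both 3D cultures were higher than both 2D cultures, in 7 both were lower, and 6 overlapped. With 2 cultures against 2, an exact two-sided permutation test cannot give a p below 0.333, which was its value for each of the 12 ratios without overlap, so none of these shifts is shown by a test.

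With all 4 cultures the ratio of Eprs to Pars2 moved most, from 11.5 and 9.96 in 2D to 18.3 and 15.9 in 3D. That of Nars1 to Nars2 was 21.7 and 22.7 in 2D and 27.1 and 35.5 in 3D, and the 3D cultures were far apart. Without 3D replicate 1 it moved more than that of Eprs to Pars2, by 0.68 against 0.57 on the log2 scale. At the other end, Farsa to Fars2 had 4.67 and 3.90 in 2D and 2.81 and 3.55 in 3D, and Mars1 to Mars2 had 5.83 and 5.63 against 3.92 and 4.598. For the head-to-head pair, Hars1 to Hars2, the ratio was 9.29 and 8.89 in 2D and 8.10 and 7.78 in 3D. Hars2 itself had 11.0 and 11.3 TPM in 2D and 10.5 and 11.2 TPM in 3D, with overlapping groups and a 95% interval of its log2 fold change from -0.22 to 0.14.

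**Figure D3:**
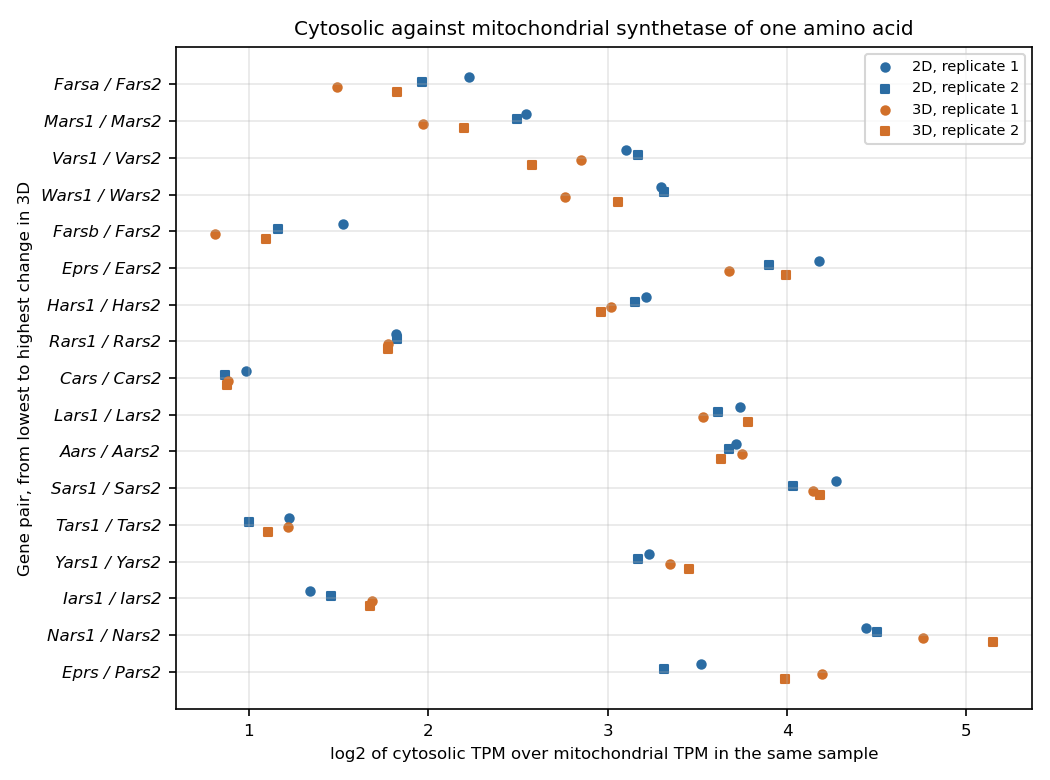
Log2 ratio of cytosolic to mitochondrial TPM for all but 1 of the 18 pairs of genes, with 1 point per culture (blue 2D, orange 3D, circle replicate 1, square replicate 2), ordered by the shift in 3D. The 7 ratios that were lower in both 3D cultures lie in the upper part, and those higher in both lie at the bottom.

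Transcripts were listed singly for 25 of the genes, while 14 had several, 34 in all, of which 25 had a mean of at least 1 TPM. Tested among 15020 transcripts, of which 23.5% passed, 1 of the 25 fell and 0 rose. This was ENSRNOT00000001379.5, which carried 97.7% of Aimp2. In 7 genes a second transcript held at least 10% of the TPM. Vars1 was spread over 4 transcripts, each with a mean above 1 TPM. Its leading transcript, ENSRNOT00000001160.6, had 44.7 and 32.9 deposited TPM in 2D and 41.4 and 16.1 in 3D, and the next, ENSRNOT00000087861.1, had 20.0 and 26.1 in 2D and 16.5 and 42.4 in 3D. The first was low where the second was high, in 3D replicate 2, while the sum over Vars1 was 80.0 and 82.7 scaled TPM in 2D and 71.1 and 72.4 in 3D. How reads were divided among such similar transcripts is an estimate of the quantification. Iars1, Tars1, Sars1, Vars2, Fars2 and Nars2 were the other genes with a sizeable second transcript. The 2 transcripts of Tars1 held 58.8% and 41.2% of its TPM.

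Other genes of tRNA charging were counted from 5 lists. Of 19 genes that deliver, edit, amidate or release aminoacyl-tRNA, 4 fell (21.1%, against 19.5% of all genes) and 1 rose, with a median log2 fold change of -0.14. In all, 26.3% were called, fewer than the 38.0% of all genes. Gatc, a subunit of the amidotransferase that completes mitochondrial glutaminyl-tRNA, had 79.5 and 80.2 TPM in 2D and 65.2 and 61.9 TPM in 3D (log2 fold change -0.32, limma adjusted p = 0.0110). Gatb and Qrsl1, for the same amidation, had -0.21 and -0.012 and did not pass. Aarsd1, which clears mischarged alanine tRNA, had a log2 fold change of -0.43, and Eef1a2, an elongation factor that delivers aminoacyl-tRNA to the ribosome, of -0.31. The more abundant Eef1a1, of the same role, had 1748 and 1795 TPM in 2D and 1887 and 1851 TPM in 3D. Its log2 fold change was 0.077 and did not pass. The rise that passed was that of Sepsecs, which makes selenocysteine on its tRNA, with 0.37. Tars3, a second cytosolic threonine enzyme that the symbol rule leaves out, had -0.14 and did not pass.

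Of 24 genes of tRNA maturation tested, 8 fell (33.3%, against 19.5% of all genes) and 1 rose (4.17%, against 18.5%), with a median of -0.13. The 37.5% called in either direction was close to the 38.0% of all genes. Pop5 and Rpp21, subunits of RNase P, had log2 fold changes of -0.67 and -0.45, and Tsen15, of the tRNA splicing endonuclease, of -0.56. Tsen34, of the same endonuclease, had 9.52 and 0 TPM in 2D and 7.34 and 9.30 TPM in 3D, so its fitted value of 1.51 rests on the listing at 0 in 2D replicate 2. Among 14 mitochondrial translation factors, 5 fell (35.7%, against 19.5% of all genes) and 1 rose (7.14%, against 18.5%), with a median of -0.18. The share called in either direction was 42.9%, against 38.0% of all genes. Tufm, the mitochondrial elongation factor that brings aminoacyl-tRNA to the ribosome, had 70.7 and 71.9 TPM in 2D and 53.0 and 53.9 TPM in 3D (log2 fold change -0.41, limma adjusted p = 0.0061). Mtrf1, a release factor, and RGD1563482, the gene also named Mtrfr, had -0.69 and -0.49.

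The list for the sensing of uncharged tRNA and for eIF2 alpha held 10 genes, among them Eif2s1, which encodes eIF2 alpha itself, and Atf4. It went the other way by count, with 4 rises (40.0%, against 18.5% of all genes), 1 fall and a median of 0.20. The fall was that of Eif2s1, with -0.23 (limma adjusted p = 0.0373). The rises hold both an inhibitor and an activator of GCN2, so the count gives no direction for the pathway. Impact, an inhibitor of GCN2, had 30.3 and 29.4 TPM in 2D and 43.0 and 40.8 TPM in 3D (log2 fold change 0.48, limma adjusted p = 0.0059). Ppp1r15a, a phosphatase subunit that acts on eIF2 alpha, had 0.33, Gcn1, which activates GCN2, had 0.22, and Eif2ak4, which encodes GCN2, had 0.26 (limma adjusted p = 0.0485). Atf4 had 209 and 199.97 TPM in 2D and 191 and 181 TPM in 3D, a log2 fold change of -0.14 that did not pass (limma adjusted p = 0.115). Without the intensity trend, 3 genes of this list rose and 0 fell.

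Of 23 known ATF4 targets outside the synthetases, 7 fell (30.4%, against 19.5% of all genes) and 2 rose (8.7%, against 18.5%), with a median of -0.13. The 39.1% called in either direction was close to the 38.0% of all genes. Psph and Psat1, of serine synthesis, had log2 fold changes of -0.62 and -0.44, and Ddit3, which encodes the stress factor CHOP, of -0.47. The rises were those of Atf3, another stress factor, with 0.89, the largest change of this list in size, and of Pycr1, of proline synthesis, with 0.45. Atf3 lay near the minimum of 1 TPM, with 0.855 and 1.24 TPM in 2D and 2.74 and 2.80 TPM in 3D. Without a TPM filter 1 gene of this list rose and 6 fell. Asns, the asparagine synthetase that ATF4 is best known to raise, had 60.4 and 55.1 TPM in 2D and 69.4 and 64.8 TPM in 3D, a log2 fold change of 0.21 (limma adjusted p = 0.0614), and is named after its values were seen. The lists for delivery, maturation, mitochondrial translation and eIF2 gave 0 calls without either 3D culture. The ATF4 list gave 0 without 3D replicate 1 and 1 without 3D replicate 2. Without 2D replicate 2 the counts were 3 for delivery, 5 for maturation, 3 for mitochondrial translation and 2 for eIF2.

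**Figure D4:**
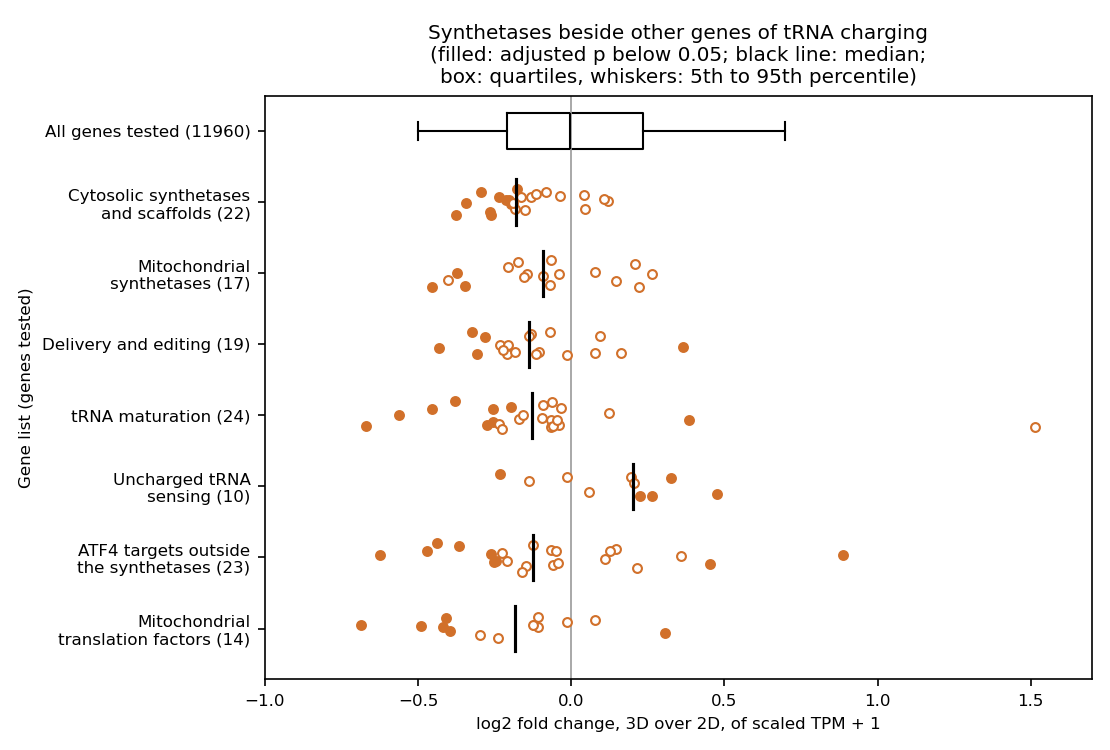
Log2 fold changes of 3D over 2D for the synthetases and for 5 lists of related genes, with 1 point per gene (filled where the adjusted p is below 0.05), a black line at each median, and a box for all 11960 genes tested. The medians of all lists but that of uncharged tRNA sensing lie below 0, and the open point at 1.51 is Tsen34.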

How the data were processed

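Reads from stranded mRNA libraries were quantified by the authors with Salmon 1.2 after FastQC 0.11.8, on rn4 sequences to which human insulin was added, and deposited as TPM per transcript with decimal commas. Each sample summed to 1000000. The authors themselves used DESeq2 on length-scaled counts, which TPM do not carry.

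TPM were summed per symbol, genes with a mean of at least 1 TPM were kept, samples were scaled with TMM factors (unweighted trimmed M values, trimming 30% of M and 5% of A), and limma 3.58.1 (R 4.3.3) with an intensity trend was fitted to log2(TPM + 1). The Benjamini-Hochberg adjustment ran over 11960 genes, with 0.05 as threshold. TPM keep no depth, so no counting error is given. With 2 cultures per group, the p-value of a gene rests on the spread between these cultures moderated by that of all genes, not on its own spread alone.

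The genes, lists and markers were chosen with earlier results of these data known. The genes named with values in each sample were the 6 cytosolic and 6 mitochondrial ones of smallest p, the 3 highest and 2 lowest levels of each kind, those with structural roles or serving both compartments, and the 2 ratios that moved most each way. From each other list the 3 genes of smallest p were named. Further ones were chosen after their values were seen. The labels number the cultures of each group and do not say whether same-numbered ones were paired. Deviations of same-numbered cultures correlated at -0.0060 over genes, which shows no shared effect but cannot exclude a pairing. The main fit held no replicate block. The steps were run on simulated TPM in which fewer genes changed than here. Each planted change was larger than that of any synthetase gene, so changes as small as theirs were not covered. Alternatives were no scaling, scaling by the median log ratio, a pseudocount of 0.1, no filter, a minimum of 5 TPM, a replicate block, no trend, and each culture left out. Promoter windows came from RefSeq GRCr8. A gene counted in the totals is not reported here by name.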

Additional observations from a re-analysis of the deposited data

How the results depend on the processing

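With 7 other settings on all 4 samples, 7 of the 13 genes that fell passed in every setting that tested them. None of the 13 changed sign in these settings or with a culture left out, and 4 of the other genes did. Nars1 and Hars2 did so without scaling and with a culture left out, Cars2 and Fars2 only with a culture left out. Without scaling between samples, 7 genes fell, 4 of them cytosolic, where 1812 of 11960 genes fell. The medians were -0.14 (cytosolic) and -0.057 (mitochondrial), against 0.036 over all genes tested. Without a TPM filter 2263 transcripts were called and the medians were -0.22 and -0.12. With a minimum of 5 TPM they were -0.16 and -0.047. Without the intensity trend 6 of 22 cytosolic genes fell, where 2064 of 11960 genes did, and 3 genes of the eIF2 list passed. A replicate block, which the labels' numbers do not warrant, called 4816 genes and 12 of the 39, and the adjusted p of Rars1 and Vars1 became 0.0503 and 0.0668.

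Leaving out single cultures, calls ran from 108 to 4443 genes, 0 to 2615 transcripts, 0 to 12 of the 39 genes, 0 to 10 cytosolic and 0 to 2 mitochondrial ones. The median of the mitochondrial genes ran from -0.13 to -0.087. The lists gave 0 to 11 (ATF4 targets), 0 to 6 (delivery), 0 to 5 (mitochondrial translation), 0 to 10 (maturation) and 0 to 4 calls (eIF2). These fits have fewer samples. The cause of the other shifts was not tested.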
